A study of Mus musculus with 2 samples.

Results

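The intervals described here are the 1 kb bins of the mouse autosomes that were rich in reads with 2 placements in both libraries of a chromatin immunoprecipitation and sequencing study of dimethylated lysine 79 of histone H3 (H3K79me2). Members were chosen by the count of these reads alone: each library had to have at least 10 distinct positions of them in the bin, where a distinct position is a start and strand counted a single time however often it was listed. Of 2242081 autosomal bins with reads, 3535 (0.158%) were members, and joining adjacent members gave 2254 regions over 3.535 Mb. Both libraries come from mouse embryonic fibroblasts (MEF), primary connective tissue cells grown from embryos, kept in DMEM with 10% FBS and precipitated with the antibody Abcam AB3594. Strain, genotype and embryo age are not given in the sources used here. The libraries form 1 group. The labels give each its own flow cell, date and gel range, the last being 150 to 350 bp for replicate 1 and 150 to 300 bp for replicate 2. The replicate numbers follow record order. The sources used here do not say if they stem from separate cultures, so the spread between them may be technical. No input library was analysed here, so copy number enters every count. The lists hold positions only, so no sequence is printed, and gene coordinates of their build, mm8, were not used here, so no gene or exon is assigned.

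As background, a short read can be placed uniquely only where its sequence occurs a single time in the assembly. Segmental duplications, processed gene copies, satellite arrays and nuclear copies of mitochondrial DNA all give reads with further placements. Mouse autosomes have their centromere at the chromosome start, where satellite repeats lie and the assembly begins after a gap. H3K79me2 itself is placed by the methyltransferase DOT1L and is known as a mark of the transcribed bodies of active genes. A read with 2 placements is listed at both, and the list does not say from which of them it came.

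Replicate 1 held 932868 distinct autosomal positions of reads with 2 placements and 16472599 of reads with 1 placement. Replicate 2 held 686312 and 12862946. Counts of reads with 1 placement are likewise of distinct positions here and below, unless lines are named. The members took 8.31% and 12.7% of the distinct positions with 2 placements but 0.137% and 0.183% of those with 1 placement. Taken alone, 11886 bins reached 10 positions in replicate 1 and 8229 in replicate 2, of which the members were 29.7% and 43.0%.

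Most regions were a single bin. This held for 1713 of the 2254 regions (76.0%), which together hold 48.5% of the member bins, while 312 had 2 bins, 207 had 3 to 9 and 22 had 10 or more, and these 22 held 309 bins. The longest was 24 kb. Because the rule set the count of reads with 2 placements, their density is a description. Regions ran from 10 to 510.75 distinct positions per kb in replicate 1, with a median of 14, and from 10 to 216.5 in replicate 2, with a median of 16. In bins outside the members the mean was 0.382 and 0.268. At the limit itself, the 698 bins whose smaller count was 10 had medians of 10 and 10 positions, and the 820 bins just below, with a smaller count of 9, had 9 and 9. Reads with 1 placement had medians of 1 and 1 in the former and 2 and 1 in the latter.

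**Figure D1:**
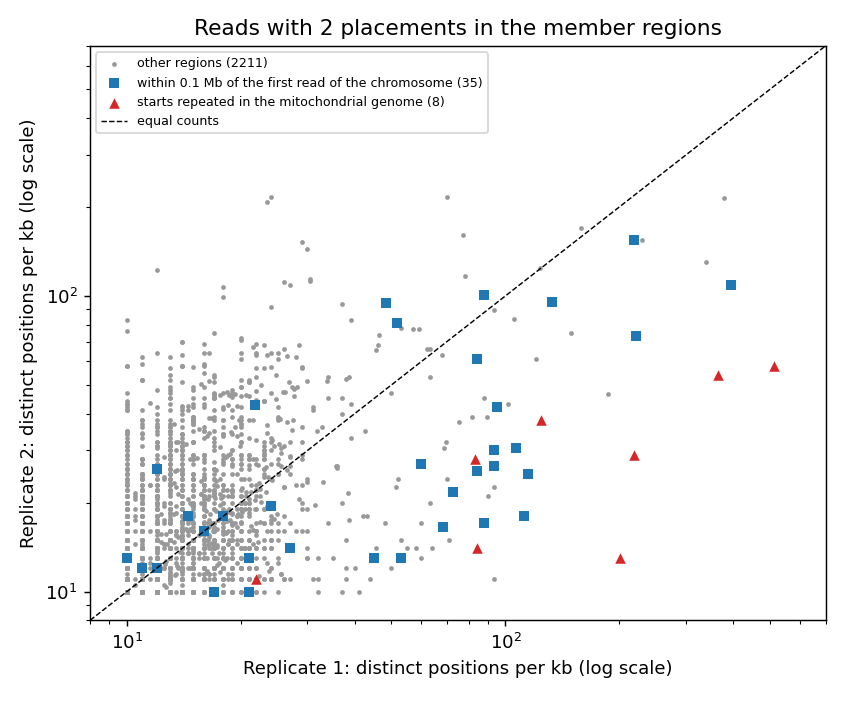
Distinct positions of reads with 2 placements per kb in each of the 2254 regions, replicate 1 on the x axis and replicate 2 on the y axis, both log scales, with the line of equal counts. The 8 regions whose starts recur in the mitochondrial genome all lie on the side of replicate 1, while 9 of the 35 regions within 0.1 Mb of the first read of their chromosome are higher in replicate 2.

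Chromosome 17 held more members than any other autosome. Its 708 bins in 299 regions made up 0.816% of its bins with reads, followed by chromosome 13 with 295 bins (0.271%). Chromosome 18 had the lowest share, 59 bins (0.0709%). Members fell in 863 of 2473 windows of 1 Mb, and the 10 fullest windows held 838 bins (23.7%). On chromosome 17 the window from 6000001 to 7000000 held 256 members and the next, from 7000001 to 8000000, held 141. On chromosome 13 the windows from 12000001 to 13000000 and from 13000001 to 14000000 held 70 and 59. Chromosome 3 from 88000001 to 89000000 held 53.

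The rule used positions bin by bin, not where the second placement of a read lay. That second place was found by looking for runs of 3 consecutive starts that recurred elsewhere with the same gaps and strands. A partner was accepted where both libraries gave the same chromosome and strand with offsets within 50 bp. For 1874 of the 2254 regions (83.1%) both libraries pointed to the same partner, and searching single bins instead gave 3076 of the 3535 members (87.0%). At the matched positions, 99.3% in replicate 1 and 99.6% in replicate 2 were listed the same number of times at both places. In 560 regions at least 90% of the positions matched in both libraries. Over all regions with a partner the median match was 71.4% in replicate 1 and 78.3% in replicate 2. The share with a partner fell to 68.9% when both libraries had to give equal offsets.

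Most partners lay on the same chromosome and not far away. This was so for 1304 of the 1874 (69.6%), at a median distance of 87.4 kb, and for 1087 of these (83.4%) the distance was under 1 Mb. The partner was in opposite orientation in 566 of the 1304. A further 538 regions had their partner on another autosome, 24 on X or Y and 8 in the mitochondrial genome. The partner overlapped a member in 1461 regions (78.0%), a count that includes partners lying inside the region itself. Many regions thus describe the same reads as another region and are not independent of it.

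Of the 5 longest regions, 4 lay on chromosome 17. As whole regions only those from 6353001 to 6374000 and from 6410001 to 6430000 met the criterion for a partner, at 1 constant offset. For the other 3, partners were found bin by bin. The region from 6267001 to 6291000 had 589 distinct positions with 2 placements in replicate 1 and 748 in replicate 2, with 16 and 13 of reads with 1 placement. All 24 of its bins had partners in opposite orientation between 6176001 and 6200000. The region from 6353001 to 6374000, with 579 and 1018 positions, and the region from 6410001 to 6430000, with 564 and 981, were partners of each other in opposite orientation. At a single offset 23.8% and 30.5% of the positions of the former and 24.5% and 31.6% of the latter matched. Bin by bin, all 21 bins of the former had partners between 6408001 and 6430000, and all 20 of the latter between 6353001 and 6374000. A 17 kb region from 14712001 to 14729000 had 457 and 872 positions and partners in the same orientation between 14697001 and 14759000. The fifth longest lay near the start of chromosome 11, from 3023001 to 3039000, with 1405 and 1615 positions, and it differed from the other 4 in its reads with 1 placement, 712 and 774 against at most 33 in replicate 1 and 75 in replicate 2. Its partners were divided between chromosome 17 from 3034001 to 3042000 and chromosome 5 from 33044001 to 33054000, with 7 bins each.

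Reads with 1 placement, which the rule did not use, were scarce in most members and abundant in a few. The median bin had 1 in each library, against means of 6.39 and 6.66 over the members and 7.35 and 5.74 over the other bins. In 1046 members (29.6%) neither library had any, against 2.14% of the other bins. By region, density had a median of 2 per kb in replicate 1 and 1 in replicate 2, with upper quartiles of 5 and 5 and highest values of 451 and 500. Background, taken as the median over 10 kb bins, was 6.7 per kb in replicate 1 and 3.3 in replicate 2, so the median member region was below it in both.

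**Figure D2:**
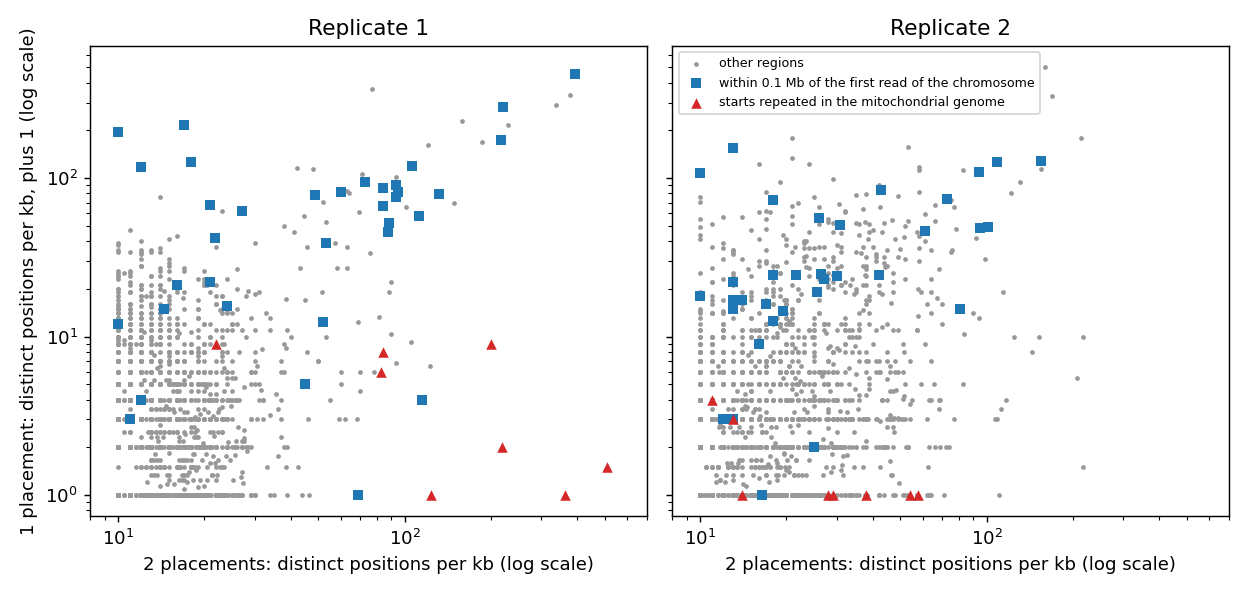
Distinct positions per kb of reads with 2 placements (x axis) and of reads with 1 placement plus 1 (y axis), both log scales, for each region in replicate 1 and replicate 2. Most regions lie at few reads with 1 placement, the regions within 0.1 Mb of the first read of their chromosome reach higher, with medians of 66 and 23 per kb, and the mitochondrial partners lie low.

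The regions lowest in reads with 1 placement included large counts with 2. Chromosome 2 from 22440001 to 22442000 had 0 and 0 of the former, with 729 and 108 positions of the latter. Chromosome 13 from 85600001 to 85601000 had 0 and 0, with 124 and 38, and chromosome 17 from 17050001 to 17051000 had 0 and 0, with 26 and 111. Replicate 1 was thus the higher library in the first of these and replicate 2 in the last.

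By the geometric mean over the libraries of reads with 1 placement per kb, the highest region was chromosome 17 from 39451001 to 39452000, with 365 in replicate 1 and 500 in replicate 2, and 77 and 160 positions with 2 placements. In replicate 1 alone the start of chromosome 5 was higher, at 451 per kb. Next to the former, on chromosome 17 from 39454001 to 39457000, there were 685 and 986 distinct positions with 1 placement and 475 and 507 with 2. Part of the latter region recurred on chromosome 6, where the region from 3150001 to 3152000 held 246 and 249 positions with 2 placements, 93.5% and 98.4% of them matched, but 11 and 18 reads with 1 placement. Shared reads are listed at both places, so their numbers are alike by construction. The numbers of reads with 1 placement were very different between the partners. Chromosome 11 from 3062001 to 3063000 showed a further combination, with 195 and 155 reads with 1 placement and 10 and 13 positions with 2.

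Repeated starts, meaning lines that list a position and strand already listed, were far more common in members than elsewhere. Of the lines with 2 placements in members, 55.2% (95% Wilson interval 55.0 to 55.5) were repeats in replicate 1 and 16.2% (16.0 to 16.4) in replicate 2, a mean of 35.7% ± 27.6 (SD, n = 2). Outside the members the shares were 13.6% and 5.26%. Reads with 1 placement had the same order, at 67.2% and 23.2% in members and 15.1% and 5.61% elsewhere. These intervals cover counting error only, because PCR copies cannot be told from separate molecules without molecular identifiers.

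This excess was carried by few bins. The 10 bins with the most repeats held 71.4% of the repeated lines of all members in replicate 1 and 40.1% in replicate 2. The median region had 16.0% and 6.25%, close to the shares outside, and in 7.30% and 33.9% of member bins no start was repeated. Among bins with at least 20 lines with 2 placements, at least 50% of the lines were repeats in 48 of 1574 members (3.05%) in replicate 1, where the share over all such bins was 3.06%. In replicate 2 they numbered 14 of 1629 (0.859%), against 0.903% over all. Both shares are near those of all bins with as many lines, members included.

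**Figure D3:**
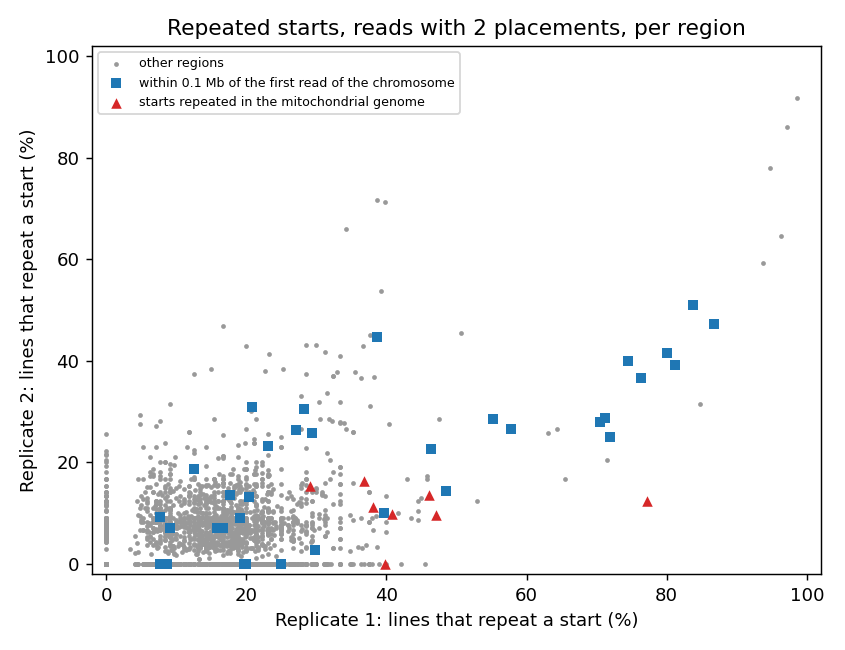
Share of lines with 2 placements that repeat a start, per region, replicate 1 on the x axis and replicate 2 on the y axis, in percent. Regions crowd near the medians of 16.0% and 6.25%, and 5 regions with no mitochondrial partner and not at a chromosome start lie above 90% in replicate 1 and above 50% in replicate 2.

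The 5 regions with the highest mean share of repeats were short and lay far from the chromosome starts. Chromosome 14 from 39187001 to 39188000 had 15942 lines at 230 positions in replicate 1 and 1874 lines at 155 positions in replicate 2, so that 98.6% and 91.7% were repeats. Chromosome 2 from 98467001 to 98469000 had 26537 lines at 755 positions and 3087 at 429 (97.2% and 86.1%). Its neighbour from 98463001 to 98466000 had 19494 at 1015 and 1775 at 392 (94.8% and 77.9%). All 3 repeated their starts heavily in both libraries. Chromosome 6 from 103614001 to 103615000 had 1290 lines at 48 positions and 48 at 17 (96.3% and 64.6%). Chromosome 9 from 35054001 to 35056000 had 3825 at 241 and 300 at 122 (93.7% and 59.3%).

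No single position accounted for these piles. On chromosome 2 the fullest position of the region from 98467001 to 98469000 took 865 lines in replicate 1 (3.26% of the region) and 81 in replicate 2 (2.62%), and its 10 fullest took 14.8% and 14.7%. On chromosome 14 the fullest took 2.67% and 4.32%. The region of chromosome 6 was more concentrated, with 13.1% and 14.6% at its fullest position and 78.0% and 81.25% at its 10 fullest. In none of the 5 did both libraries point to the same partner. The search needs 1 constant offset, so this does not show where the second placements lie. In replicate 1 the fullest positions of both regions of chromosome 2 had 865 lines each, on opposite strands.

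Distances between starts on the same strand, from 100 bp upwards, had their most frequent value within 10 bp in both libraries in 4 of the 10 densest regions and further apart in the other 6. On chromosome 9 from 3000001 to 3001000 the most frequent distance was 225 bp in replicate 1, with 48 pairs against a mean of 8.77 pairs per distance, and 234 bp in replicate 2, with 16 pairs against 1.003. On chromosome 5 from 3000001 to 3003000 it was 404 bp and 406 bp, at 1.53 and 2.45 times the mean. Chromosome 14 from 39187001 to 39188000 gave 108 and 109 bp, and chromosome 2 from 98463001 to 98466000 gave 126 and 128 bp, both near the lower limit of 100 bp. Among the 6 others were chromosome 2 from 98467001 to 98469000 with 137 and 228 bp and chromosome 1 from 24566001 to 24570000 with 104 and 650 bp.

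Strand imbalance was called in few of the members that could be tested. Most of the 3535 members had too few positions for the test in either library and either kind of read. Distinct positions on the plus strand made up 50.3% of those with 2 placements in each library, and 50.4% and 50.5% of those with 1 placement. A read shared by members in opposite orientation is listed on the plus strand at 1 place and the minus strand at the other. Such reads draw the pooled share with 2 placements toward an equal split, so that share does not show strand balance. For each bin with at least 20 positions, plus and minus were set against an equal split in an exact binomial test (two-sided), with Benjamini-Hochberg adjustment below 0.01. For reads with 1 placement it called 0 of 195 members in replicate 1 and 0 of 300 in replicate 2, where 0% and 0% of all bins tested were called. At an unadjusted p under 0.05 there were 3 and 12. For reads with 2 placements it called 2 of 1065 members in replicate 1, where 0.188% of all bins were called, and 0 of 1472 in replicate 2, where 0% were. At an unadjusted p under 0.05 there were 39 and 58. At 20 positions only a large imbalance can pass, so a smaller one was not detectable at this depth.

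Both called bins were neighbours in 1 region of chromosome 1. From 24567001 to 24568000, 58.3% of 705 positions were on the plus strand in replicate 1 (exact binomial test, adjusted p = 0.00635), and 61.4% of 70 in replicate 2 (exact binomial test, adjusted p = 1). From 24568001 to 24569000 it was 59.7% of 541 (adjusted p = 0.00582 in the exact binomial test) and 51.3% of 76 (adjusted p = 1). The region they belong to was 1 of the 8 with a mitochondrial partner.

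These 8 regions, singled out after their values were seen, covered 14 kb on 8 chromosomes, 1, 2, 4, 6, 7, 10, 12 and 13. Mitochondrial DNA is present in many copies per cell and carries no histones, and stretches of it have been inserted into nuclear chromosomes. The largest, chromosome 1 from 24566001 to 24570000, had 2043 distinct positions with 2 placements in replicate 1 and 231 in replicate 2, against 2 and 0 with 1 placement. Its partner was mitochondrial positions 7027 to 10828 in opposite orientation. Chromosome 2 from 22440001 to 22442000 had 729 and 108 positions and recurred at 4587 to 6421, also in opposite orientation, with every position matched. Chromosome 4 from 79474001 to 79477000 had 657 and 87 and recurred at 13332 to 15359 in the same orientation. The other 5 had 22 to 201 positions in replicate 1 and 11 to 38 in replicate 2.

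All 8 were higher in replicate 1. Together they had 6786 lines with 2 placements in replicate 1 and 600 in replicate 2, a ratio of 11.3, while distinct positions with 1 placement were 33 and 5. The mitochondrial genome itself had 9664 and 652 lines with 1 placement, a ratio of 14.8, and 7836 and 628 with 2, a ratio of 12.5. Over the autosomes the lines with 2 placements were 1162811 and 736449. Of the distinct positions in the 8 regions, 90.2% in replicate 1 and 89.1% in replicate 2 had their match in the mitochondrial genome.

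In replicate 1 the strand shares of 7 of the 8 regions went with the orientation of the partner. Read in mitochondrial orientation, 42.0% (95% Wilson interval 40.4 to 43.5) of the 3943 positions were on the plus strand in replicate 1 and 47.2% (43.0 to 51.4) of 530 in replicate 2. Reads with 1 placement in the mitochondrial genome had 41.9% (40.4 to 43.3) of 4608 and 46.9% (42.8 to 51.02) of 565. In nuclear orientation of replicate 1 the plus strand held 59.0%, 55.6%, 58.2% and 58.1% on chromosomes 1, 2, 10 and 13, whose partners were opposite, and 42.0%, 38.6% and 40.5% on chromosomes 4, 6 and 12, whose partners were in the same orientation. Chromosome 7 from 111588001 to 111589000 went the other way, with 27.3% of 22 positions in opposite orientation. In replicate 2, with 11 to 231 positions a region, the opposite partners on chromosomes 1, 2, 10 and 13 had 51.1%, 54.6%, 53.8% and 65.8%, those in the same orientation on chromosomes 4, 6 and 12 had 43.7%, 53.6% and 50.0%, and the pooled interval above includes an equal split.

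Members crowded toward the chromosome starts. Within 0.1 Mb of the first read of their chromosome lay 89 of the 3535 member bins (2.52%), against 0.0559% of all bins with reads. Within 1 Mb the share was 5.88% (208 bins) against 0.715%, and within 5 Mb 18.98% (671 bins) against 3.74%. By region there were 35 on 9 chromosomes, 122 on 15 and 300 on 18 at these distances. The 256 and 141 members in the pair of fullest windows of chromosome 17 lie between 3 and 5 Mb from its first read. Together they are most of the 671 bins in the last share.

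**Figure D4:**
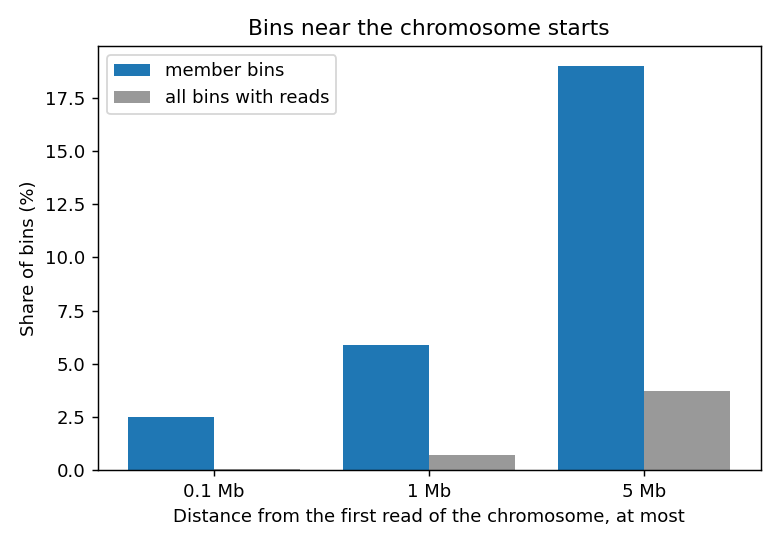
Share of the 3535 member bins and of all 2242081 autosomal bins with reads, in percent, that lie at most 0.1, 1 or 5 Mb from the first read of their chromosome. Members exceed all bins at each distance, with 2.52% against 0.0559%, 5.88% against 0.715% and 18.98% against 3.74%. Most members within 5 Mb lie in the pair of fullest windows of chromosome 17.

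The 35 regions nearest the starts were denser than other members in both kinds of read. Their median was 53 positions with 2 placements per kb in replicate 1 and 21.7 in replicate 2, and 66 and 23 with 1 placement, against medians of 2 and 1 over all regions. They held 11.1% of the member lines with 2 placements in replicate 1 and 6.32% in replicate 2. An opposite partner was found in 1 of them, and 12 had a partner that overlapped a member, which can be the region itself.

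The start of chromosome 5 was the fullest of these. From 3000001 to 3003000 there were 1181 and 326 positions with 2 placements and 1353 and 377 with 1. Chromosome 9 from 3000001 to 3001000 had 221 and 73 with 2 placements and 280 and 73 with 1. Both were higher in replicate 1 by more than the 1.28-fold ratio of the libraries in reads with 1 placement. Not every start was so. Chromosome 17 from 3032001 to 3042000 had 517 and 808 with 2 placements, and chromosome 4 from 3007001 to 3013000 had 131 and 256. Chromosome 10 from 3010001 to 3011000 was barely a member, with 11 and 12.

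Reads with 1 placement could be compared between the libraries in 464 members with at least 20 of them in both libraries together, in an exact binomial test (two-sided) with the autosomal totals as the expected ratio. With Benjamini-Hochberg adjustment below 0.01, 50 members (10.8%) were higher in replicate 1, against 0.814% of all bins tested. In the other direction 169 (36.4%) were higher in replicate 2, against 21.2% of all bins. Scaled by the background of each library instead, the numbers were 19 and 278, and the shares over all bins 0.257% and 45.5%. With a minimum of 40 in place of 20, they were 48 and 136 of 266 members, against 0.654% and 63.5% of all bins tested. The excess of members higher in replicate 2 was thus absent at that minimum. The test compares 2 libraries of 1 group, not conditions.

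Of the 464 members tested, 69 (14.9%) were in regions within 0.1 Mb of the first read. Of the 50 higher in replicate 1 it was 28 (56.0%), in 16 regions on 5 chromosomes, and of the 169 higher in replicate 2 it was 11 (6.51%), in 5 regions. Adjacent bins of a region are not independent, and the difference between these shares was not tested. On chromosome 5 from 3000001 to 3001000, replicate 1 had 658 reads with 1 placement and replicate 2 had 137 (log2 ratio 1.90 after scaling, exact binomial test, adjusted p = 4.00e-52). Far from a start, chromosome 14 from 18209001 to 18210000 had 358 and 96 (log2 ratio 1.54, exact binomial test, adjusted p = 3.22e-21). Toward replicate 2 the smallest adjusted p was on chromosome 10 from 80823001 to 80824000, with 27 and 177 (log2 ratio -3.05, exact binomial test, adjusted p = 3.17e-33). Chromosome 5 from 4762001 to 4763000 had 11 and 117 (log2 ratio -3.71, exact binomial test, adjusted p = 1.55e-26). These 4 bins were chosen after their values were seen.

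Enrichment was taken as at least 12 distinct reads with 1 placement in a 1 kb bin of replicate 2. By itself, 435 of the 3535 member bins (12.3%) reached it, against 11.7% of all bins with reads, a share near the background. Within 5 kb outside the region, 858 of the 2254 regions (38.1%, 95% Wilson interval 36.1 to 40.1) had an enriched bin, against 32.4% for all bins. Of the regions, 304 were enriched both inside and beside, 554 only beside, 36 only inside and 1360 at neither place. With at least 20 reads in replicate 1 in place of replicate 2, 17.9% of regions had such a bin beside them, against 8.06% of all bins. At the limit of 12 in replicate 2, regions chosen from replicate 1 alone had an enriched bin beside them in 19.9%, below the 32.4% of all bins. Regions chosen from replicate 2 alone had it in 55.9%, so the excess depended on which library chose the regions. Regions that share reads are not independent, and the interval does not allow for this.

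The share of regions with enrichment beside them varied with the place of the partner. An enriched bin lay beside 67.2% of the 180 regions with a partner under 10 kb away, 23.2% of the 907 with a partner at 10 kb to 1 Mb, 28.1% of the 217 with a more distant partner on the same chromosome and 50.7% of the 538 with a partner on another autosome. It was 66.7% for the 24 with a partner on X or Y and 46.3% for the 380 with no shared partner. The regions at chromosome starts, which overlap the classes above, had 88.6% of 35. Several of these lie within 5 kb of each other and share flank bins. The share for all bins as near a start was not computed. Of the 8 with a mitochondrial partner, 1 had it (12.5%).

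**Figure D5:**
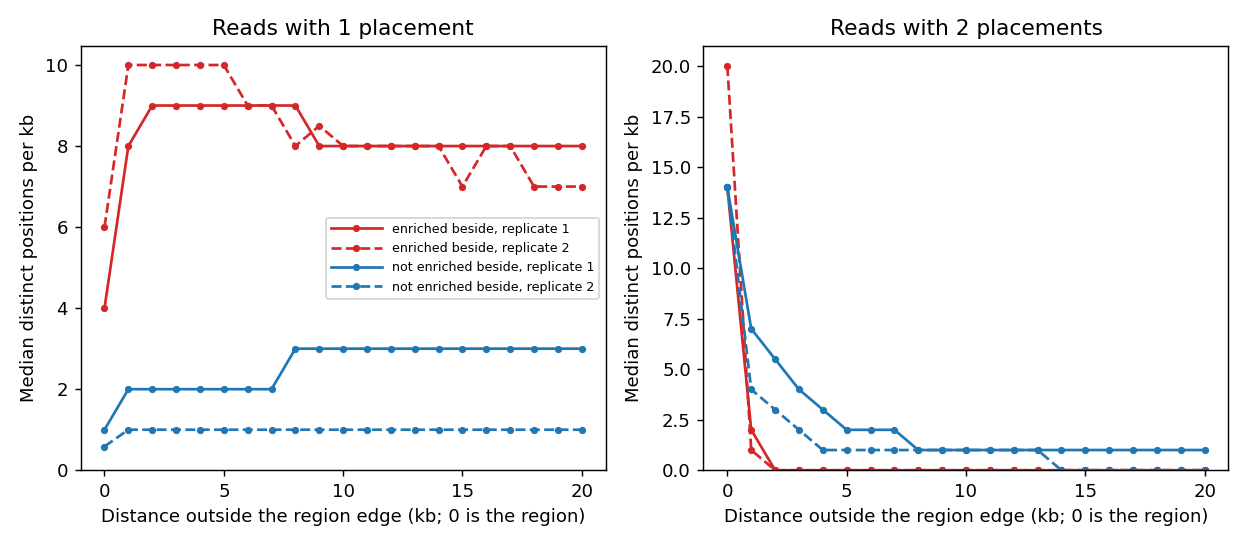
Median distinct positions per kb at each distance from the region edge, 0 being the region itself, for reads with 1 placement (left) and 2 placements (right), in the 858 regions with an enriched bin within 5 kb and the 1396 without, for both replicates. In the former, reads with 1 placement stand at 4 and 6 per kb inside and at 8 and 10 in the first kb outside, and reads with 2 placements fall from 14 and 20 to 2 and 1.

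The density of reads changed at the region edge in opposite directions. Beside enrichment, reads with 1 placement had medians of 4 per kb in replicate 1 and 6 in replicate 2 inside the region, 8 and 10 in the first kb outside and 8 and 7 at 20 kb. Reads with 2 placements had 14 and 20 inside, 2 and 1 in the first kb and 0 and 0 in the second. The 1396 other regions had 1 and 0.586 reads with 1 placement inside and 2 and 1 in the first kb. Their reads with 2 placements fell more slowly, from 14 and 14 to 7 and 4 in the first kb, 5.5 and 3 in the second and 2 and 1 in the fifth. The rule sets the height inside, and the class sets the enrichment outside, so neither is a result by itself.

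Beside enrichment the reads with 2 placements leaned toward replicate 2. Since the rule used these counts, this is a description. Of the 858 regions, 583 (67.9%) had more positions with 2 placements in replicate 2, with a median log2 ratio of replicate 2 to replicate 1 of 0.39 without scaling. Of the 1396 others, 674 (48.3%) did, with a median of 0. In the 84 regions with enrichment in all 10 bins within 5 kb, 69 (82.1%) were higher in replicate 2, the median log2 ratio was 0.94, and the median densities were 14 and 25. With the neighbourhood classed from replicate 1 instead, the medians were 0.47 for 403 regions and 0.11 for the rest. Without the regions at chromosome starts and those with a mitochondrial partner they were 0.44 and 0. Both of these settings were chosen after seeing the data.

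Named from the 84 regions with enrichment in all 10 bins beside them are 5. Chromosome 8 from 74207001 to 74212000 had 113 and 249 positions with 2 placements and 69 and 174 reads with 1 placement. Its partner lay from 74666717 to 74670434 in opposite orientation and matched only 31.0% and 31.7% of its positions with 2 placements. Chromosome 15 from 83286001 to 83288000 had 57 and 136 positions, of which 73.7% and 74.3% matched. Its partner from 83289546 to 83290176 lay 2.95 kb away by offset. The other 3 were within 0.1 Mb of the start of chromosome 11. From 3059001 to 3060000 that chromosome had 218 and 155 positions, with a partner on X that matched 68.3% and 76.1% of them. From 3040001 to 3043000 it had 397 and 285, with a partner on chromosome 5 from 33040718 to 33043515 that matched 36.5% and 43.2%. From 3049001 to 3051000 chromosome 11 had 97 and 189. Libraries differed in direction among these neighbours, which lie within 20 kb of each other.

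The largest ratios toward replicate 2, picked after their values were seen, included a pair of partners 12.9 kb apart on chromosome 17. From 34565001 to 34567000 there were 47 positions with 2 placements in replicate 1 and 415 in replicate 2, and from 34578001 to 34580000 there were 48 and 433. Reads with 1 placement in them were 4 and 9, and 2 and 1. In the first 97.9% and 99.8% of positions were matched in the second, so these are nearly the same reads. Their flanks had 10.1 and 15.9, and 6.8 and 11.7, reads with 1 placement per kb. Chromosome 1 from 156935001 to 156936000, with 12 and 122 positions, had 7 and 80 reads with 1 placement. Chromosome 7 from 114718001 to 114719000 had 18 and 107 positions, a partner on chromosome 6 from 148311994 to 148312691 and no enriched bin beside it.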

How the data were processed

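Each library is a deposited list of positions with other lines as headers, and each number carries its strand as a sign and no level. Bowtie aligned the reads to mm8 (-e 70, -k 2, -m 2, -n 2, -l 36, best first), per the file headers, which also mark a section for 1 placement and another for 2. The submitters' processing notes name this tool (version not given in the sources used here) and this build. Per the labels' protocols, chromatin of 500 bp on average was precipitated, amplified in 18 cycles of LM-PCR and selected for inserts of 50 to 200 nt.

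Positions were read as the leftmost base counted from 0, and printed intervals count from 1. Autosomes are chromosomes 1 to 19. The members, regions named and tests were chosen with earlier results of these data known. Named are the 10 densest, 5 longest, 5 most repeated, 5 highest and 3 lowest in reads with 1 placement, 5 most enriched beside, and the first region within 0.1 Mb of each chromosome start that has one, plus those said to be picked later. Partner offsets under 36 bp on the same strand were left out, and at least 3 runs were needed in each library. Binomial tests and Wilson intervals cover counting error only. The tests were checked on simulated counts. The partner search was checked on simulated exact copies only, which does not cover partial matches or satellite arrays. Alternatives changed the count minimum, bins, repeated starts, thresholds and scaling, or left out a library. Analyses used Python 3.11.15, NumPy 2.4.6 and SciPy 1.17.1, and plots matplotlib 3.10.9.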

Additional observations from a re-analysis of the deposited data

Results flagged for a closer look

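Chromosomes outside the autosomes also had bins with at least 10 distinct positions of reads with 2 placements in both libraries. Their bins are no members, and beyond the search for partners and the mitochondrial values given beside the 8 regions they were not used. On X there were 105 such bins in 75 regions of up to 6 kb, with medians of 14 and 15 positions in replicates 1 and 2. On Y there were 10 bins in 9 regions, with medians of 44.5 and 13. The mitochondrial genome had 12 bins, with medians of 273 and 41. As shares of bins with reads, these were 0.0802% on X, 0.598% on Y and 70.6% on the mitochondrial genome, against 0.158% on the autosomes. No control library was analysed, so these were flagged for holding more than the limit that a count of 0 allows.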

How the results depend on the processing

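Settings for partners, the enrichment limit in replicate 1 and both alternatives for the ratio of replicate 2 to 1 beside enrichment were added after seeing the data. Regions numbered 2254, and 3523, 834 and 383 at a minimum of 8, 15 and 20 positions. Regions with enrichment beside them were 25.5% with a limit of 20 in replicate 2, against 14.6% of all bins. With 20 in replicate 1 they were 17.9% against 8.06%. They were 22.4% within 1 kb against 16.7%, 57.4% within 20 kb against 49.8%, and 40.2% with all lines against 35.1%. At a minimum of 15 and 20 positions they were 44.1% and 44.6%, against 32.4%. Inside they were 15.1%, and 10.4%, 6.03%, 18.1% and 23.0% with the limits of 20 in replicates 2 and 1 and the minimums of 15 and 20. Bins with strand imbalance among reads with 2 placements were 2, and 0 at a minimum of 10 and 0 at adjusted p 0.001. Scaling by background left 6.40% of the differing members higher in replicate 1, against 22.8%. Regions within 1 Mb of the first read were 5.41%, and 8.09% at a minimum of 20. Partners were found for 68.9% with equal offsets, 69.6% with 5 runs, 86.5% within 500 bp and 87.0% of single bins. Leaving out either library gave 5965 to 7306 regions, 19.9% to 55.9% with enrichment beside, 6.17% to 34.5% inside, 0 to 2 bins with strand imbalance and 2.78% to 2.98% within 1 Mb. With 1 library the members need 10 positions in it alone, which admits more bins. For changes under other settings the cause was not tested. No paired analysis was possible because the libraries form 1 group.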
